A study of Mus musculus with 4 samples.

Results

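The interferon response and antigen presentation genes described here are 38 genes chosen by name among the 28611 rows of an RNA-seq table of the mouse ovary, and all 38 had a row. They comprise 4 sensors of foreign nucleic acid, 4 transcription factors of the interferon pathway, 12 antiviral effectors, 5 guanylate-binding or immunity-related GTPases, 4 ubiquitin-like or signalling regulators, 5 other interferon-induced genes and 4 genes of antigen presentation by major histocompatibility complex (MHC) class I. The study deleted Hdac3, which encodes a histone deacetylase, in granulosa cells (GCs), the somatic cells that surround the oocyte, and compared the transcriptome with that of mice that kept the gene. Hdac3cKO females carried floxed Hdac3 alleles and the Foxl2-CreERT2 transgene, a Cre recombinase made where Foxl2 is active and switched on by tamoxifen. Hdac3flox/flox females carried the floxed alleles without the transgene. Both genotypes were on the C57BL/6 background, received tamoxifen once at 18 days of age (20 mg per kg of body weight) and were 24 days old, and each had 2 libraries, which the series' design ties to 2 mice per group. The study describes the deletion as incomplete in this model. Whether these mice also received gonadotropin (PMSG), which sets the stage of their follicles, is not given in the sources used.

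The labels name ovarian GCs, whereas the protocol names ovaries as the source of the RNA. Markers of the oocyte, theca, endothelium and stroma were all read in all 4 libraries, so each value is a sum over the cell types of the ovary, in which fewer cells of a type and less RNA per cell cannot be told apart. Library totals were 18452073 and 17621129 reads for Hdac3cKO and 18310258 and 18346828 reads for Hdac3flox/flox. Levels are RPKM, the reads of a gene scaled to its exon length and to the library total. Hdac3 itself was at 19.4 and 19.2 RPKM in Hdac3cKO libraries, against 24.4 RPKM in both Hdac3flox/flox libraries, a log2 fold change of -0.34 (SE 0.0325, limma adjusted p = 0.00935). This level sums reads over the whole gene, so it also counts transcripts that lost only the floxed exons. It is thus no measure of the extent of the deletion.

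Interferons are secreted proteins that a cell releases when its sensors meet foreign nucleic acid. They bind receptors on neighbouring cells and, through JAK kinases, activate transcription factors of the STAT family. A complex that holds STAT2 and IRF9 binds the interferon-stimulated response element (ISRE), while the response to interferon gamma runs through the gamma-activated site (GAS), and the genes so induced block viral replication and raise the display of peptides on MHC class I. Many of these genes also have a low resting level in cells that have met no virus.

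The promoters show the element that gives the group its name. A window from 250 bases before to 50 bases after the gene start in RefSeq (GRCm38.p6) was matched for 29 of the 38 genes. The ISRE core GAAANNGAAA, searched on both strands, was in the window of 16 of these 29 genes (55.2%), against 3.99% of the 27025 genes with a window. The GAS core TTCNNNGAA, which reads the same on both strands, was in 7 of the 29 (24.1%), against 9.55%. The 200 bases before the start of 5 genes are shown with ISRE cores in capitals, because they span the range seen among the genes, from 3 overlapping cores to none. Isg15 (chr4:156200819-156201018, minus strand) holds 3 overlapping cores between 78 and 57 bases before the start, Bst2 (chr8:71537473-71537672, minus strand) holds 2 overlapping cores, of which the first also overlaps a GAS core by 3 bases, and Ifit3 (chr19:34583329-34583528, plus strand) holds 2 separate cores in the other orientation. Igtp (chr11:58199356-58199555, plus strand) holds 1 core close to the start, and Xaf1 (chr11:72301429-72301628, plus strand) has no match to these letters.
Isg15: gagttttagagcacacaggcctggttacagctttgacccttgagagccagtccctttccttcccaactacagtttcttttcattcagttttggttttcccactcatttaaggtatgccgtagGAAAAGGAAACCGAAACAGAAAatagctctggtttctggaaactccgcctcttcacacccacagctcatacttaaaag
Bst2: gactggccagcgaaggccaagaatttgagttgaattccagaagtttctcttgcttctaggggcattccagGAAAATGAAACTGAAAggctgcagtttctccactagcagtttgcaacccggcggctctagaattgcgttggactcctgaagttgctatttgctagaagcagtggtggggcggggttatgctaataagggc
Ifit3: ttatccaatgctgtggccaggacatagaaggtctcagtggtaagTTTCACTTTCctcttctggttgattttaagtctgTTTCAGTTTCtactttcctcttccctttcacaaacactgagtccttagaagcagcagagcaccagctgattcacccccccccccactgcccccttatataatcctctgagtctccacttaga
Igtp: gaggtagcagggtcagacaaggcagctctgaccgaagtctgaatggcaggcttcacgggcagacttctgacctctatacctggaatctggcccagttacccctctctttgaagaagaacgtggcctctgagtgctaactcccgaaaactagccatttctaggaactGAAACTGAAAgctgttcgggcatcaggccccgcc
Xaf1: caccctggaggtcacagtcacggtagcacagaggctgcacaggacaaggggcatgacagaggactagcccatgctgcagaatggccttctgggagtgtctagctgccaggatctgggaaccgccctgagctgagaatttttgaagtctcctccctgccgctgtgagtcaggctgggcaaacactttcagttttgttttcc
A match is a run of letters and not a measured binding site, and no match says only that these letters are not in the window.

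**Figure D1:**
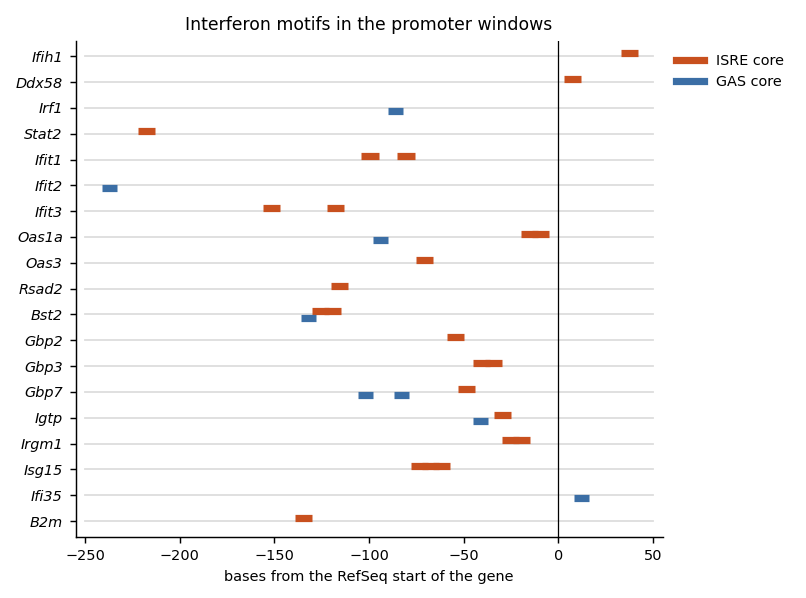
Position of each ISRE core (orange) and GAS core (blue) in the promoter windows of the 19 genes with a match, in bases from the RefSeq start of the gene. Cores lie mostly in the 200 bases before the start, and overlapping cores appear as 1 longer bar in Isg15, Bst2, Gbp3, Irgm1 and Oas1a.

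The genes were expressed over a wide range. Summed over all 38 genes, the level was 604.7 and 609.5 RPKM in Hdac3cKO libraries, against 679.5 and 669.5 RPKM in Hdac3flox/flox libraries. B2m, Bst2, H2-K1, Ifi27 and H2-D1 made up 80.0% of this sum. Of the others, most were low: 28 of the 38 genes had a mean between 1 and 20 RPKM, and 4 stayed under 1 RPKM in every library. Class I components and the membrane protein Bst2 thus dominated the sum, while the sensors and most effectors were modest.

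**Figure D2:**
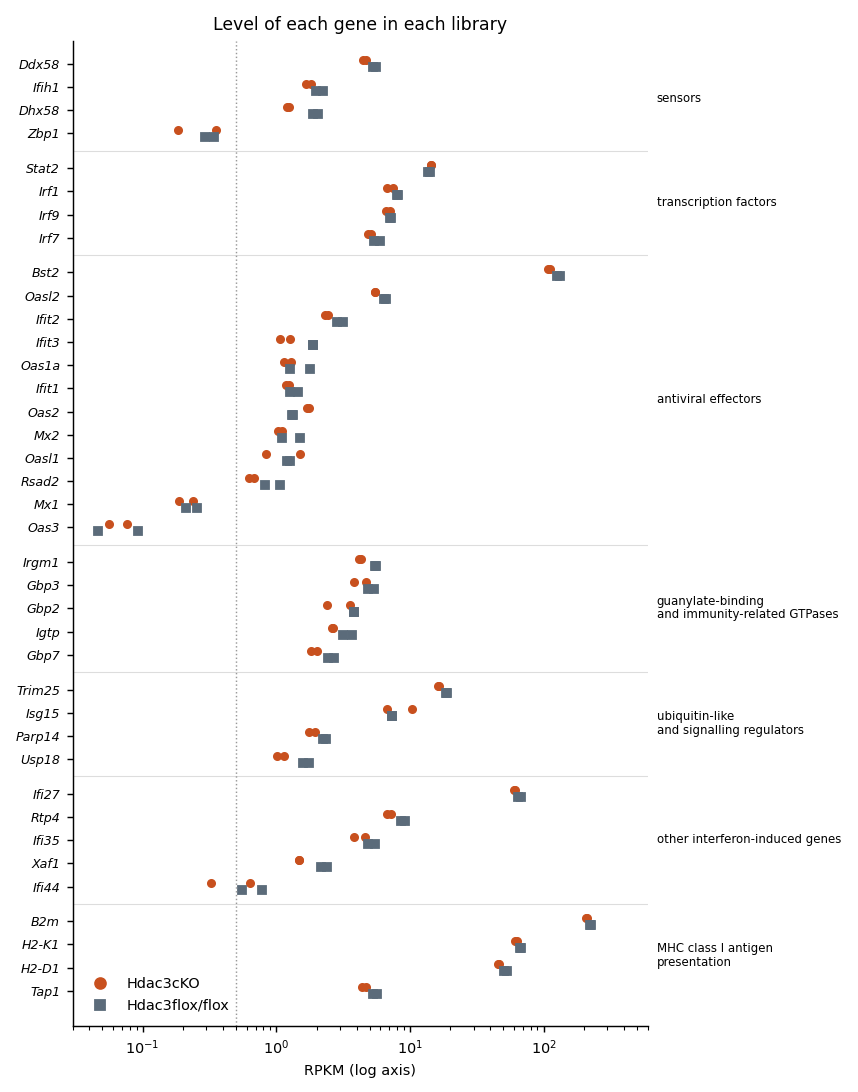
Level of each of the 38 genes (rows, grouped by role) in each library, in RPKM on a log axis, with Hdac3cKO libraries as circles and Hdac3flox/flox libraries as squares; the dotted line marks 0.5 RPKM. For most genes both circles lie to the left of both squares by a small distance, and Oas2 and Stat2 show the other order.

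A minority of the genes were called lower in Hdac3cKO, and the others mostly had small fold changes below 0 that did not pass the test. Among the 35 genes that reached 0.5 RPKM in at least 2 libraries and were tested, 0 were called higher and 8 were called lower at a limma adjusted p under 0.05, namely Bst2, Irgm1, Trim25, Dhx58, Rtp4, Xaf1, Ifit3 and H2-D1. The 8 genes are 22.9% of those tested, beside 11.0% of all 15528 genes called lower and 7.68% called higher. At an unadjusted p under 0.05, 20 of the 35 were lower and 1, Oas2, was higher. The share of all genes at this unadjusted p was not counted, here or below, so these counts do not set the genes apart. No gene of the 35 reached a 2-fold change. Their median log2 fold change was -0.25, beside -0.04 for all genes tested, and the fold change was below 0 for 32 of the 35 (91.4%), beside 56.2% of all genes. Both Hdac3cKO libraries lay below both Hdac3flox/flox libraries for 28 of the 35 genes (80.0%), beside 37.8% of all genes, and above both for 2, beside 26.7% of all genes. The calls were not stable: 0 of the 8 passed when genes of any level were tested, and 4 passed with the trend in GC content and length removed. With limma voom on recovered reads 13 genes were lower, 7 of them among the 8, and Oas2 was higher. With any 1 library left out, a genotype keeps 1 library, so those fits cannot decide whether a gene passes. The log2 fold changes of the 8 then stayed between -0.75 for Ifit3 and -0.14 for H2-D1. The sign of each tested gene was the same in every alternative that kept the 4 libraries and tested it, which was 8 for 32 of the genes and 7 for Oasl1, Rsad2 and Ifi44, which a filter of 1 RPKM in each library left out.

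**Figure D3:**
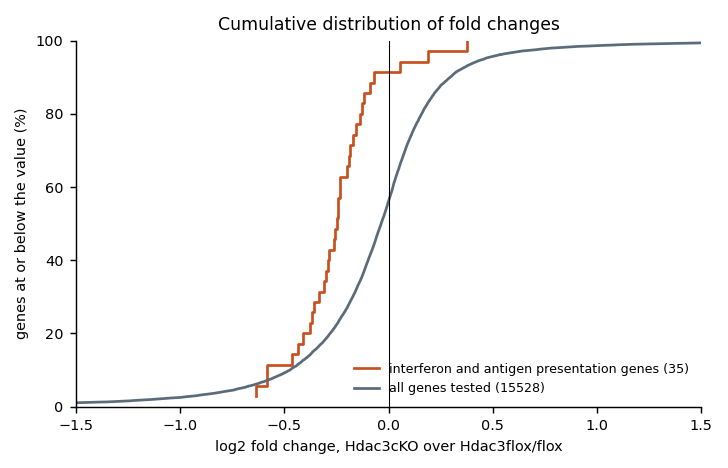
Cumulative share of genes (y axis, %) at or below each log2 fold change of Hdac3cKO over Hdac3flox/flox (x axis, drawn from -1.5 to 1.5), for the 35 interferon and antigen presentation genes tested (orange) and all 15528 genes tested (grey). The orange curve lies to the left of the grey one over its middle, with medians of -0.25 and -0.04, and reaches 91.4% at 0.

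The shift was seen in both Hdac3cKO libraries. Set against the mean of the 2 Hdac3flox/flox libraries on the log2 scale, the median of the 35 genes was -0.28 and -0.21 in Hdac3cKO replicates 1 and 2, against 0.03 and -0.03 in the Hdac3flox/flox libraries. For all genes tested, the same medians were -0.04 and -0.03 in Hdac3cKO, against 0.00 and 0.00 in Hdac3flox/flox. Of the 35 genes, 33 and 31 were below the Hdac3flox/flox mean in the Hdac3cKO libraries, which share this reference. In the fit, 56.2% of all genes had a fold change below 0. By construction, the 2 Hdac3flox/flox libraries mirror each other around their own mean. Their medians are thus no measure of spread for the Hdac3cKO libraries. The distance between replicates was of a like size in both genotypes, since the larger value exceeded the smaller by a median factor of 1.07 in Hdac3cKO and 1.07 in Hdac3flox/flox. Zbp1, Oasl1, Gbp2, Isg15 and Ifi44 differed by more than 1.4-fold between the Hdac3cKO replicates, each with the lower value in replicate 1, and Oas1a, Oas3 and Ifi44 did so between the Hdac3flox/flox replicates.

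**Figure D4:**
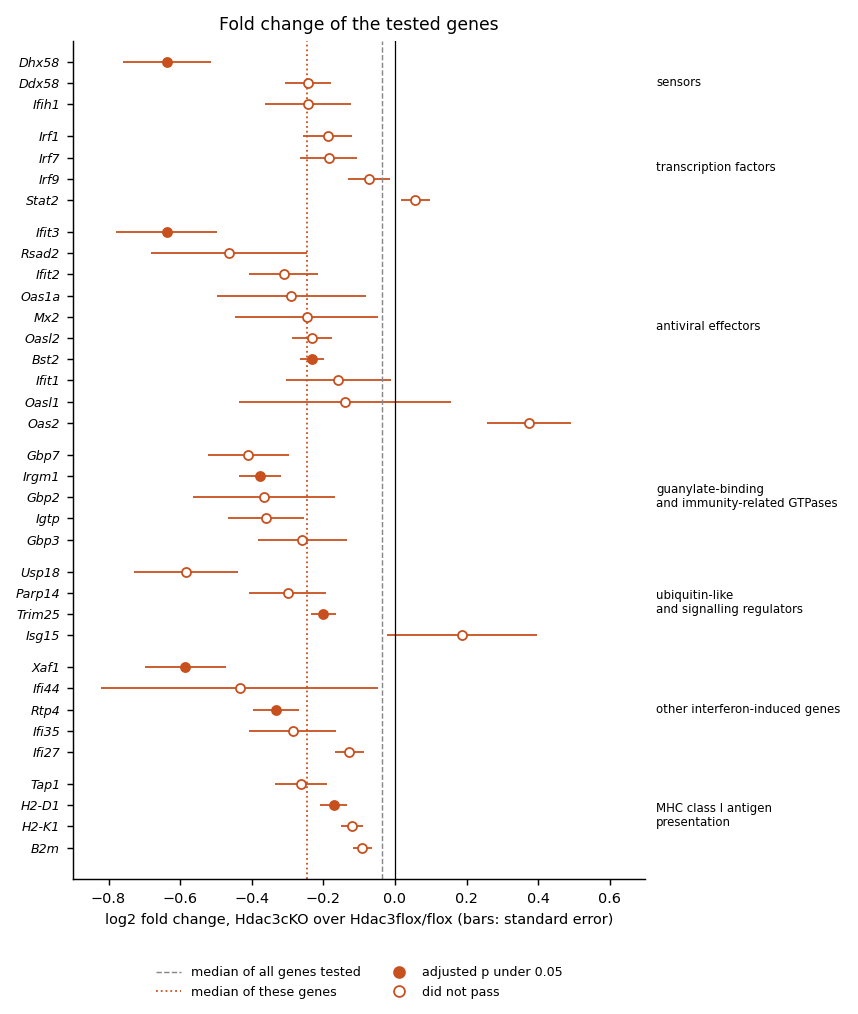
log2 fold change of Hdac3cKO over Hdac3flox/flox for the 35 genes tested (points, with bars of 1 standard error from limma), grouped by role, with filled points for genes at an adjusted p under 0.05. Points left of the solid line at 0 are lower in Hdac3cKO, and the filled points lie between -0.64 for Ifit3 and -0.17 for H2-D1.

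The sensors start the response by recognising foreign nucleic acid. Of the 3 that were tested, 1 was called lower, and the median log2 fold change was -0.24. Dhx58 encodes LGP2, an RNA helicase that tunes the signalling of the other RNA sensors (chr11:100694884-100704271, GRCm38, minus strand). It was at 1.21 and 1.25 RPKM in Hdac3cKO libraries, against 2.05 and 1.88 RPKM in Hdac3flox/flox libraries, with 73 and 72 reads behind the Hdac3cKO values and 123 and 113 behind the Hdac3flox/flox values. The groups did not overlap, and its log2 fold change was -0.64 (SE 0.122, limma adjusted p = 0.0343). Ddx58, which encodes the RNA sensor RIG-I, was at 4.46 and 4.67 RPKM in Hdac3cKO, against 5.56 and 5.28 RPKM in Hdac3flox/flox, without passing the test (limma adjusted p = 0.0694). Ifih1, which encodes MDA5, a sensor of long double-stranded RNA, also lay below in both Hdac3cKO libraries without passing (log2 fold change -0.24, limma adjusted p = 0.228). Zbp1, a sensor of left-handed nucleic acid, had 12 and 22 reads in Hdac3cKO, against 22 and 19 reads in Hdac3flox/flox, and was not tested, since its level stayed under 0.5 RPKM.

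The 4 transcription factors relay the signal of the sensors or of the receptors to the nucleus, and their median log2 fold change was -0.13. Irf1, Irf7 and Irf9 had log2 fold changes of -0.19, -0.18 and -0.07 (limma adjusted p = 0.127, 0.177 and 0.438). Stat2, the partner of IRF9, was at 14.4 and 14.3 RPKM in Hdac3cKO, against 14.1 and 13.6 RPKM in Hdac3flox/flox. It was thus one of the 2 genes whose Hdac3cKO libraries were both above, by a log2 fold change of 0.06 (limma adjusted p = 0.377).

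Among the antiviral effectors, 10 of 12 were tested, 2 were called lower and the median log2 fold change was -0.24. Bst2 encodes tetherin, a membrane protein that holds budding virus particles at the cell surface (chr8:71534255-71537456, GRCm38, minus strand). It was at 108.1 and 112.0 RPKM in Hdac3cKO, against 131.7 and 126.9 RPKM in Hdac3flox/flox. The groups stood apart by several times the distance between replicates, with a log2 fold change of -0.23 (SE 0.0339, limma adjusted p = 0.0201), and this was the smallest adjusted p of the 35 genes. Ifit3 belongs to a family of proteins that bind foreign RNA (chr19:34583531-34588731, GRCm38, plus strand). It was at 1.27 and 1.07 RPKM in Hdac3cKO, against 1.88 and 1.87 RPKM in Hdac3flox/flox, with 41 and 33 reads in Hdac3cKO libraries and 60 in each Hdac3flox/flox library. It had a log2 fold change of -0.64 (SE 0.141, limma adjusted p = 0.0454) and the fewest reads of the called genes. The value is uncertain, because Ifit3 shares 97.8% identity over 1700 transcript bases with its neighbour Ifit3b, whose level was 0.190 and 0.312 RPKM in Hdac3cKO, against 0.519 and 0.572 RPKM in Hdac3flox/flox.

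The relatives of Ifit3 in the same cluster of chromosome 19 were not called. Ifit2 was at 2.30 and 2.46 RPKM in Hdac3cKO, against 3.13 and 2.83 RPKM in Hdac3flox/flox (log2 fold change -0.31, limma adjusted p = 0.0953). Ifit1 was at 1.18 and 1.24 RPKM in Hdac3cKO, against 1.46 and 1.27 RPKM in Hdac3flox/flox (log2 fold change -0.16, limma adjusted p = 0.492). The oligoadenylate synthetases, enzymes that sense double-stranded RNA, and their relatives on chromosome 5 did not share a direction. Oas2 was at 1.75 and 1.71 RPKM in Hdac3cKO, against 1.30 and 1.32 RPKM in Hdac3flox/flox. Its groups did not overlap in the direction opposite to most of the genes, with a log2 fold change of 0.38 (SE 0.118, limma adjusted p = 0.0964). Oasl2 was at 5.51 RPKM in both Hdac3cKO libraries, against 6.62 and 6.36 RPKM in Hdac3flox/flox (log2 fold change -0.23, limma adjusted p = 0.0537), and lay just outside the threshold. Oas1a and Oasl1 overlapped between genotypes, and Oas3, with 6 to 12 reads per library, stayed under 0.5 RPKM and was not tested. Oas1a is uncertain as well, being 97.6% identical to Oas1g.

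Rsad2, which encodes viperin, an enzyme that makes a chain-terminating nucleotide, was at 0.625 and 0.681 RPKM in Hdac3cKO, against 1.06 and 0.830 RPKM in Hdac3flox/flox. The groups did not overlap, the Hdac3flox/flox replicates differed from each other more than the Hdac3cKO replicates did, and the change did not pass the test (log2 fold change -0.46, limma adjusted p = 0.209). Mx1 and Mx2, dynamin-like GTPases of which inbred mouse strains mostly carry defective alleles, overlapped between genotypes. Mx2 was at 1.11 and 1.04 RPKM in Hdac3cKO, against 1.10 and 1.51 RPKM in Hdac3flox/flox, while Mx1 stayed at or under 0.254 RPKM. Both values are uncertain, since the 2 transcripts share 95.3% identity over 843 bases.

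The guanylate-binding proteins and immunity-related GTPases attack the vacuoles of intracellular pathogens and respond mainly to interferon gamma. All 5 were tested, and all 5 had Hdac3cKO libraries below the Hdac3flox/flox libraries, an order that 37.8% of all genes showed. Their median log2 fold change of -0.37 was the lowest of the 7 role groups, but only Irgm1 was called. Irgm1 (chr11:48861968-48871683, GRCm38, minus strand) was at 4.28 and 4.18 RPKM in Hdac3cKO, against 5.49 and 5.55 RPKM in Hdac3flox/flox. Replicates were nearly equal in both genotypes, and the log2 fold change was -0.38 (SE 0.0588, limma adjusted p = 0.0231). Igtp was at 2.60 and 2.64 RPKM in Hdac3cKO, against 3.13 and 3.67 RPKM in Hdac3flox/flox (log2 fold change -0.36, limma adjusted p = 0.0829). Gbp7, Gbp3 and Gbp2, neighbours on chromosome 3, had log2 fold changes of -0.41, -0.26 and -0.37 (limma adjusted p = 0.0736, 0.216 and 0.26). The value of Gbp7 is uncertain, because it shares 100% identity over 637 transcript bases with the annotated Gm43802. The Hdac3cKO libraries of Gbp2 stood apart from each other, at 2.39 and 3.56 RPKM, against 3.80 and 3.79 RPKM in Hdac3flox/flox.

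Of the 4 ubiquitin-like and signalling regulators, 1 was called. Trim25, a ubiquitin ligase that acts on RIG-I (chr11:88999376-89020293, GRCm38, plus strand), was at 16.2 and 16.5 RPKM in Hdac3cKO, against 18.8 and 18.7 RPKM in Hdac3flox/flox. The change was small and even, with a log2 fold change of -0.20 (SE 0.0352, limma adjusted p = 0.029). Usp18, the protease that removes ISG15 from proteins and damps receptor signalling, was at 1.15 and 1.02 RPKM in Hdac3cKO, against 1.59 and 1.76 RPKM in Hdac3flox/flox. It did not pass the test (log2 fold change -0.59, limma adjusted p = 0.059). Parp14, a mono-ADP-ribosyltransferase, was at 1.93 and 1.75 RPKM in Hdac3cKO, against 2.24 and 2.34 RPKM in Hdac3flox/flox (limma adjusted p = 0.125). Isg15, the ubiquitin-like protein itself, was at 6.74 and 10.4 RPKM in Hdac3cKO, against 7.30 and 7.35 RPKM in Hdac3flox/flox, which rest on 94 and 138 reads in Hdac3cKO and 101 and 102 reads in Hdac3flox/flox. Its Hdac3cKO libraries lay on either side of the Hdac3flox/flox libraries, and the log2 fold change was 0.19 (SE 0.209, limma adjusted p = 0.572), although its promoter holds the most ISRE cores of those shown. A copy of 95.2% identity in the annotation makes its value uncertain.

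Among the other interferon-induced genes, 2 of 5 were called, with a median log2 fold change of -0.33. Xaf1, which binds the apoptosis inhibitor XIAP (chr11:72301629-72313733, GRCm38, plus strand), was at 1.48 and 1.49 RPKM in Hdac3cKO, against 2.40 and 2.16 RPKM in Hdac3flox/flox, which rest on 128 and 123 reads in Hdac3cKO and 206 and 186 reads in Hdac3flox/flox. It had a log2 fold change of -0.59 (SE 0.113, limma adjusted p = 0.0345). Rtp4, a chaperone of G protein-coupled receptors (chr16:23520291-23614222, GRCm38, plus strand), was at 7.27 and 6.79 RPKM in Hdac3cKO, against 9.17 and 8.59 RPKM in Hdac3flox/flox (log2 fold change -0.33, SE 0.0642, limma adjusted p = 0.0345). In both genes the groups did not overlap. Ifi27, a small membrane protein, was at 61.3 and 60.2 RPKM in Hdac3cKO, against 68.3 and 64.3 RPKM in Hdac3flox/flox (limma adjusted p = 0.0945). Ifi35 and Ifi44 had log2 fold changes of -0.29 and -0.43 (limma adjusted p = 0.172 and 0.475), and Ifi44 overlapped between genotypes.

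MHC class I molecules display peptides from inside the cell to T cells. H2-K1 and H2-D1 encode their heavy chains, B2m the light chain, and Tap1 a subunit of the transporter that brings peptides into the endoplasmic reticulum. Summed over the 4 genes, the level was 323.9 and 319.8 RPKM in Hdac3cKO, against 347.0 and 348.2 RPKM in Hdac3flox/flox. All 4 lay lower in both Hdac3cKO libraries, by small amounts, an order that 37.8% of all genes showed. H2-D1 (chr17:35262730-35267499, GRCm38, plus strand) was at 46.7 and 45.4 RPKM in Hdac3cKO, against 53.1 and 50.6 RPKM in Hdac3flox/flox. It was the only one called (log2 fold change -0.17, SE 0.0378, limma adjusted p = 0.046). H2-K1 was at 60.6 and 62.9 RPKM in Hdac3cKO, against 67.3 and 66.9 RPKM in Hdac3flox/flox (log2 fold change -0.12, limma adjusted p = 0.0644). The 2 heavy chain transcripts share 95.2% identity over 251 bases, so reads between them may have been split. B2m, the most abundant of the 38 genes, was at 211.9 and 207.1 RPKM in Hdac3cKO, against 220.9 and 225.4 RPKM in Hdac3flox/flox (log2 fold change -0.09, limma adjusted p = 0.0857). Tap1 was at 4.68 and 4.41 RPKM in Hdac3cKO, against 5.68 and 5.27 RPKM in Hdac3flox/flox (log2 fold change -0.26, limma adjusted p = 0.0738).

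The motifs were set beside the fold changes as a description. The 15 tested genes with an ISRE core had a median log2 fold change of -0.26, with 3 called lower and 13 below 0. The 13 tested genes whose window held no ISRE core had a median of -0.20, with 3 called lower and 13 below 0. Both sets included genes at about -0.6, Ifit3 with the core and Xaf1 without it.

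The rest of the pathway was read from the same fit, and fits with 1 library left out cannot decide whether its calls hold. Of 12 interferon ligand genes on the list, Ifna13 and Ifnz had a row, each with 1 read in 1 Hdac3flox/flox library and 0 reads in Hdac3cKO libraries. The other 10 had no single row under their listed names. Of 15 tested genes for receptors and JAK-STAT signalling, 2 rose (beside 7.68% of all genes) and 1 fell (6.67%, beside 11.0% of all genes). Their median log2 fold change was -0.07. Socs1, an interferon-induced inhibitor of JAK kinases, was at 11.2 and 11.2 RPKM in Hdac3cKO, against 7.66 and 8.27 RPKM in Hdac3flox/flox (log2 fold change 0.48, limma adjusted p = 0.0129). Stat3, which many cytokines besides interferons activate, rose as well (log2 fold change 0.23, limma adjusted p = 0.0347), and the kinase Jak2 fell (log2 fold change -0.24, limma adjusted p = 0.0337). With the trend in GC content and length removed, with median-of-ratios size factors or without the filter, 0 genes of this list were called lower. The interferon gamma receptor chain Ifngr2 had a log2 fold change of -0.27 (limma adjusted p = 0.0536). Of 14 tested sensing adaptors, kinases and interferon regulatory factors, 0 rose and 2 fell (14.3%), a share near the 11.0% of all genes called lower. These were Ticam1, the adaptor of TLR3 (log2 fold change -0.36, limma adjusted p = 0.0313), and Irf8, a factor of myeloid cells, at 0.922 and 0.957 RPKM in Hdac3cKO, against 1.66 and 1.49 RPKM in Hdac3flox/flox (log2 fold change -0.69, limma adjusted p = 0.0418).

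Of 46 other interferon-stimulated genes that were tested, 1 rose and 10 fell (21.7%, beside 11.0% of all genes called lower), 39 had a fold change below 0 (84.8%, beside 56.2%), and the median log2 fold change was -0.22. Gbp9 had a larger fold change than any of the 38, at 1.34 and 1.20 RPKM in Hdac3cKO, against 2.81 and 2.67 RPKM in Hdac3flox/flox (log2 fold change -1.05, limma adjusted p = 0.0116). The GTPase gene Iigp1 fell as well (log2 fold change -0.63, limma adjusted p = 0.0142), and Slfn9 was the gene that rose (log2 fold change 0.52, limma adjusted p = 0.00844).

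Of 23 other genes of class I presentation that were tested, 4 rose (beside 7.68% of all genes) and 6 fell (26.1%, beside 11.0% of all genes). H2-T23, a non-classical class I heavy chain that presents signal peptides to natural killer cells, was at 4.33 and 4.87 RPKM in Hdac3cKO, against 8.96 and 8.70 RPKM in Hdac3flox/flox (log2 fold change -0.93, limma adjusted p = 0.00781). H2-M3, another non-classical heavy chain, fell too (log2 fold change -0.37, limma adjusted p = 0.0135). Pdia3 and Calr, general chaperones of the endoplasmic reticulum that also help to load class I, rose. Pdia3 was at 474.1 and 472.1 RPKM in Hdac3cKO, against 380.1 and 373.8 RPKM in Hdac3flox/flox (log2 fold change 0.33, limma adjusted p = 0.00656). Calr was at 687.6 and 675.4 RPKM in Hdac3cKO, against 559.9 and 554.3 RPKM in Hdac3flox/flox (log2 fold change 0.29, limma adjusted p = 0.008).

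Many of these genes are expressed in leukocytes and in the endothelium as well as in GCs, so markers of the other cells of the ovary were read beside them. The counts below stand beside 11.0% of all genes called lower and 7.68% called higher. Of 34 leukocyte markers with a row, 16 were tested, 0 rose and 1 fell (6.25%). The 1 that fell was the complement gene C1qa of macrophages (log2 fold change -0.48, limma adjusted p = 0.038). Leukocyte markers had a median of -0.25. Their summed level was 62.4 and 63.0 RPKM in Hdac3cKO, against 74.5 and 72.5 RPKM in Hdac3flox/flox. Of the 16 tested leukocyte markers, 15 had a fold change below 0 (93.8%, beside 56.2% of all genes). Both Hdac3cKO libraries lay below both Hdac3flox/flox libraries for 8 of the 16, beside 37.8% of all genes. They lay above both for 0, beside 26.7% of all genes. The log2 fold changes ranged from -0.98 for Cd14 to 0.13 for Trac. As examples, 3 leukocyte markers are given, chosen after their values were seen, of which Lyz2 and Ptprc overlapped between genotypes. The macrophage gene Lyz2 was at 20.5 and 17.0 RPKM in Hdac3cKO, against 19.6 and 20.0 RPKM in Hdac3flox/flox. C1qb was at 8.47 and 8.61 RPKM in Hdac3cKO, against 11.7 and 8.77 RPKM in Hdac3flox/flox. Ptprc, the common leukocyte antigen, was at 0.175 and 0.0961 RPKM in Hdac3cKO, against 0.155 and 0.125 RPKM in Hdac3flox/flox, and 10 of the 34 markers had fewer than 10 reads in every library. Of 12 endothelial markers, 0 rose and 9 fell (75.0%), with a median of -0.41. The endothelial markers summed to 118.7 and 118.9 RPKM in Hdac3cKO, against 161.0 and 158.8 RPKM in Hdac3flox/flox. Cldn5, the tight junction protein of endothelium, had a log2 fold change of -0.81 and Ly6c1 one of -0.68 (limma adjusted p = 0.00373 and 0.0068). Of 11 tested markers of stroma and smooth muscle, 0 rose and 6 fell (54.5%), among them Pdgfrb and Lum, with a median of -0.29. The stroma and smooth muscle markers summed to 740.5 and 802.4 RPKM in Hdac3cKO, against 911.8 and 902.0 RPKM in Hdac3flox/flox. Of 14 GC markers, 7 rose and 3, Foxl2, Fshr and Wt1, fell (21.4%), with a median of 0.13. The GC markers summed to 10810 and 10400 RPKM in Hdac3cKO, against 9260 and 8778 RPKM in Hdac3flox/flox. Inha alone was at 6094 and 5776 RPKM in Hdac3cKO, against 5280 and 4946 RPKM in Hdac3flox/flox. Of 10 theca markers, 2 rose, Lhcgr and Hsd3b6, and 4 fell (40.0%), with a median of 0.05. The theca markers summed to 3036 and 2962 RPKM in Hdac3cKO, against 3633 and 3413 RPKM in Hdac3flox/flox. Of 12 oocyte markers, 1 rose and 0 fell (median 0.19). The oocyte markers summed to 337.7 and 299.3 RPKM in Hdac3cKO, against 275.4 and 276.8 RPKM in Hdac3flox/flox. Of 7 tested markers of the surface epithelium, 0 rose and 2, Krt8 and Krt18, fell (28.6%), while the median was 0.24. The whole RNA-seq table held 0 rows at 0 reads in all 4 libraries. Every marker with a row thus had reads in some library by the make-up of the table. Fits with 1 library left out cannot decide whether a marker passes, since a genotype then keeps 1 library. The summed endothelial, stromal, theca and leukocyte levels were thus lower in both Hdac3cKO libraries, as was the sum of the 38 genes. For theca, only 5 of the 10 markers had a fold change below 0. For stroma and smooth muscle, 8 of the 11 tested did, while Col1a1, Dcn and Des lay above in both Hdac3cKO libraries. The stromal sum includes Acta2, at 264.8 and 308.4 RPKM in Hdac3cKO, against 377.4 and 369.7 RPKM in Hdac3flox/flox. The summed GC and oocyte levels were higher in both Hdac3cKO libraries. The GC sum rests largely on Inha, and GC markers did not share a direction. The part of any cell type in the result was not tested.

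**Figure D5:**
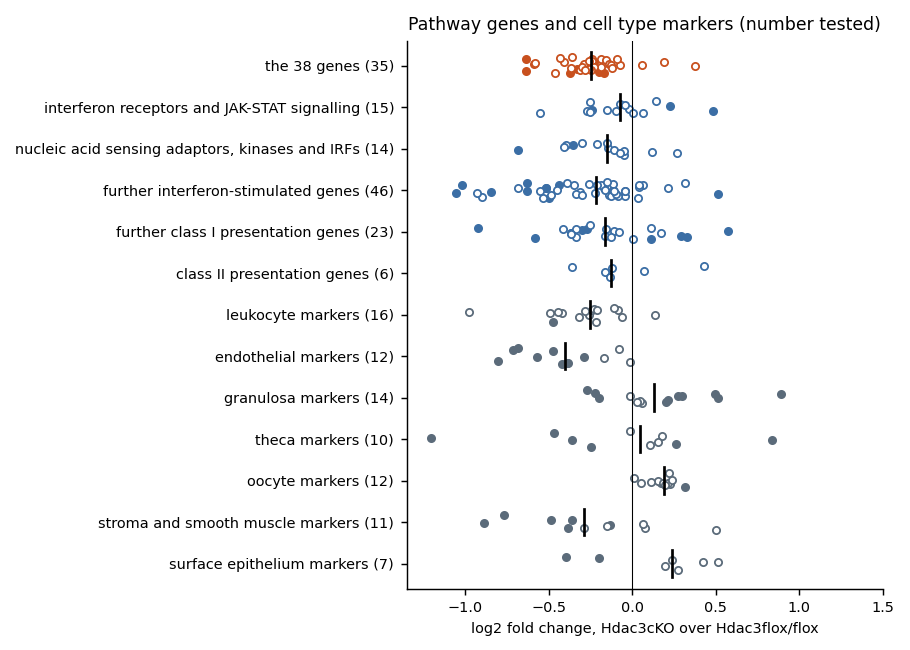
log2 fold change of Hdac3cKO over Hdac3flox/flox (x axis) for each tested gene of the 38 (top row), of 5 pathway lists and of 7 lists of cell type markers, with filled points at a limma adjusted p under 0.05, vertical bars at list medians and the number of genes tested in parentheses. The medians of the 38 genes and of the leukocyte markers are both -0.25, and the endothelial markers have the lowest median, -0.41.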

How the data were processed

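RNA of the ovaries of 2 Hdac3cKO and 2 Hdac3flox/flox mice was read from Illumina TruSeq libraries. The authors deposited RPKM values in 1 table of 28611 rows named by gene symbol. As tools and build, the submitters' notes list Bowtie 0.12.2 and mm8; the counter, and whether it counted reads or pairs, are not stated in the notes or methods. Symbols of 26771 rows matched GENCODE M21 (GRCm38). Dividing out the annotated exon length gave whole reads in 91.0% of the matched rows (relative tolerance 1e-06), which is at odds with mm8, so positions are on GRCm38. Whole reads were recovered for 99.99% of rows, for H2-K1 and Mx1 only as the smallest whole numbers. PCR duplicates cannot be told apart in them.

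Genotypes were compared with limma 3.58.1 (R 4.3.3; trended prior, two-sided, no other term) on log2(RPKM + 0.1). The 15528 genes that reached 0.5 RPKM in 2 or more libraries were tested, and p-values were adjusted over them by Benjamini-Hochberg, with a threshold of 0.05. Fold changes are on the log2(RPKM + 0.1) scale, which understates changes of low genes. A gene was called higher or lower only past this threshold. The fit was repeated with pseudocounts of 0.01 and 1, without the filter, with a filter of 1 RPKM in each library, after median-of-ratios scaling, by limma voom on the recovered reads (trimmed mean of M values factors), with a block for the replicate number, and leaving out 1 library at a time. Removing each library's dependence on GC content and exon length was added after the data were seen. The fit was tested on simulated data.

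The 38 genes, the pathway lists and the marker lists were chosen with earlier results of these data known. All 38 genes are accounted for, with per library values for called and class I genes. Up to 4 genes with the smallest p were named per pathway list, and up to 2 per marker list; 1 gene of this rule is not reported here. Further named genes and further per library values were chosen after they were seen. Promoter sequences are from RefSeq (GRCm38.p6). Transcript copies were searched with BLAST 2.17.0 (95% identity or more, covering 50% or more of the shorter one). Plots were drawn with matplotlib 3.10.9 in Python 3.11.15.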

Additional observations from a re-analysis of the deposited data

How the results depend on the processing

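Among the settings that kept all 4 libraries, the number of the 38 genes called lower was 8 with a pseudocount of 0.01 or 1, 12 of 32 tested under a filter of 1 RPKM in each library, 6 with median-of-ratios size factors, 13 with limma voom, 4 with the trend in GC content and length removed (Bst2, Dhx58, Irgm1 and Xaf1) and 0 of 38 without a filter, where 20 had an unadjusted p under 0.05 in limma. 1 gene, Oas2, was called higher, with voom only. Over all genes, 1193 higher and 1711 lower became 1626 and 1355 with median-of-ratios size factors, 1976 and 1207 without the GC and length trend, 2362 and 2257 with voom, and 410 and 544 without a filter. Under the filter of 1 RPKM, 12572 genes were tested. Their calls are not given here, so the 12 genes have no share of all genes beside them. The median log2 fold change of the 38 genes was -0.20 with the GC and length trend removed and -0.20 with a pseudocount of 1. With the replicate number as a block, 4 of the 38 genes were lower (Bst2, H2-D1, Irgm1 and Rtp4), with 891 higher and 1252 lower over all genes. The labels do not say that a number pairs libraries, and the deviations of same-numbered libraries correlated at 0.076. With each library left out in turn, 0 of the 38 genes passed, with 10 to 15 of them at an unadjusted p under 0.05 and 31 to 33 of 35 fold changes below 0, while over all genes 0 to 45 were higher and 0 to 53 lower, and Hdac3 had log2 fold changes of -0.35 to -0.33 (limma adjusted p = 0.0724 to 0.0894). The lone library of a genotype is there assumed to vary like the other genotype. The log2 fold change of Oasl1 spanned -0.53 to 0.25, above 0 without Hdac3cKO replicate 1, and that of Isg15 spanned -0.12 to 0.49, below 0 without Hdac3cKO replicate 2. The causes of these differences between settings were not tested, beyond the fewer libraries or the larger number of genes adjusted for. The exact 95% interval of the read ratio, which covers counting error only, held 1 for 10 of the 38 genes. It was below 1 for 27 and above 1 for 1. The share of all genes with such intervals was not counted, so these counts do not set the 38 genes apart. The 10 include low genes such as Oas3, with 17 reads in Hdac3cKO and 18 in Hdac3flox/flox. They also include Stat2, with 3073 and 3000 reads and a ratio of 1.04.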

Other observations

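Further interferon-stimulated genes fell in Hdac3cKO beside those named by the rule, and were chosen here after their values were seen. Slfn5, a Schlafen family gene, was at 0.720 and 0.646 RPKM in Hdac3cKO, against 1.57 and 1.40 RPKM in Hdac3flox/flox (log2 fold change -1.02, limma adjusted p = 0.0262). Tor3a was at 1.87 and 2.41 RPKM in Hdac3cKO, against 3.99 and 3.80 RPKM in Hdac3flox/flox (log2 fold change -0.85, limma adjusted p = 0.0263). Uba7, the enzyme that activates ISG15 for conjugation, was at 3.81 and 3.44 RPKM in Hdac3cKO, against 4.93 and 5.52 RPKM in Hdac3flox/flox (log2 fold change -0.52, limma adjusted p = 0.0314). Irgm2, a relative of Irgm1, had a log2 fold change of -0.44 (limma adjusted p = 0.0267).

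MHC class II is used by antigen-presenting cells to display proteins taken up from outside. Of 11 listed genes with a row, 6 were tested and 0 passed in limma (1, Cd74, at an unadjusted p under 0.05), with a median log2 fold change of -0.13. Cd74, the invariant chain, was at 3.15 and 3.42 RPKM in Hdac3cKO, against 2.21 and 2.63 RPKM in Hdac3flox/flox (log2 fold change 0.43, limma adjusted p = 0.0722), the smallest p of the 6. With the trend in GC content and length removed, and with a filter of 1 RPKM in each library, 1 gene of the list, Cd74, was called higher. H2-Aa overlapped between genotypes, at 1.04 and 0.757 RPKM in Hdac3cKO, against 1.43 and 0.960 RPKM in Hdac3flox/flox.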
